A study of Homo sapiens with 24 samples.

Results

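The time course of SLFN11 knockout cells after irradiation, 24 h against 4 h after 2 Gy, was measured on 6 of the 24 arrays of the series. The arrays were taken by their titles, and 17687 genes with 1 symbol were compared. The study set ES8, a human Ewing sarcoma cell line, beside 1 derivative line, ES8-1F2, in which SLFN11 had been knocked out with CRISPR/Cas9. Every group was grown in DMEM/F12 with glutamine and 10% fetal bovine serum. The 2 groups compared are knockout cells given 2 Gy of gamma radiation and harvested 4 h later (3 arrays) and the same line, given the same dose and harvested 24 h later (3 arrays). Unirradiated knockout cells (0 Gy, 4 h and 24 h, 3 arrays each) and irradiated parental ES8 cells (2 Gy, 4 h and 24 h, 3 arrays each) served to show what went with time alone and with the line. The knockout is a single derivative line, so the edit and any other property of that line cannot be told apart. The labels do not say whether the 3 replicates of a group were separate cultures, so the p-values below reflect only how far these arrays scatter, and that scatter may be technical.

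Ionising radiation breaks DNA, and cells with a working G2 checkpoint hold back entry into mitosis until breaks are repaired. Genes for mitotic cyclins, kinases, kinetochores and spindle motors are transcribed mainly in G2 and mitosis, so their RNA levels follow the share of cells in those phases as well as the activity of each gene. SLFN11 is a Schlafen family protein that is recruited to stressed replication forks and blocks their progress, and many Ewing sarcoma cells express it. In a bulk sample, more cells in a phase and more RNA per cell cannot be told apart. The comparison addresses how a line without SLFN11 moved from the early to the later transcriptome after a moderate radiation dose.

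The 6 arrays were alike. Across genes, which are not independent replicates, log2 signals of arrays from the same group correlated at 0.990 to 0.992 and those from different times at 0.989 to 0.992. The background level, the 95th percentile of 612 negative control probe sets, lay between 3.54 and 3.68 on the log2 scale, and 12191 genes were above it on all 6 arrays. Of 10 Ewing sarcoma markers, 8 were measured and all 8 were above background on all 6 arrays. Other cell types' markers reached that level less completely, with 5 of 12 measured epithelial, 5 of 12 blood, 5 of 10 endothelial and 4 of 9 fibroblast genes, and no marker of the 5 lists was called between the times. The median differences of those 5 lists lay between 0.03 and 0.05.

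SLFN11 itself had log2 signals of 6.33, 6.72 and 6.68 in irradiated knockout cells at 4 h, and of 6.97, 7.03 and 6.74 at 24 h. In irradiated parental cells it averaged 8.11 ± 0.11 (SD, n = 3) at 4 h and 8.42 ± 0.18 (SD, n = 3) at 24 h, so the lines did not overlap at either time. The signal in the knockout line was nevertheless above background on every array. An edited gene can still be transcribed, and the position of the probes relative to the edit is not known here, so the signal is no check on the protein. Between the times it differed by 0.34 (SE 0.13, limma adjusted p = 0.487). Of the other 5 Schlafen genes measured, SLFN5 was above background throughout and differed by 0.21 (SE 0.22, limma adjusted p = 0.876). SLFN13 and SLFN14 were not above background on any of the 6 arrays, and SLFN12 and SLFN12L only on 1 array each at 24 h.

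At 24 h, 8 genes were higher than at 4 h in limma's moderated test at an adjusted p below 0.05, which is 0.0452% of the 17687 genes tested, and 0 genes (0%) were lower. Without adjustment for the number of genes, 1405 genes had a p below 0.05 (769 higher and 636 lower, 4.35% and 3.6%). The median difference over all genes was 0.0035 and the median 95% interval of a gene spanned 0.31 on either side. For each of the 8 genes the 3 values at 24 h lay above the 3 values at 4 h, as did those of 1207 genes in all (6.82%), against 1115 (6.3%) whose values at 24 h all lay below. The 8 genes have varied roles: a mitotic kinase, an enzyme of cholesterol synthesis, a homeobox factor, a cell surface proteoglycan, a chromatin reader, an orphan transporter, an adaptor of blood cells and an olfactory receptor.

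AURKA, the Aurora A kinase that acts at centrosomes and the spindle, had log2 signals of 8.67, 8.71 and 8.56 at 4 h against 9.13, 9.03 and 9.08 at 24 h. The 3 later values all lay above the 3 earlier ones. The rise was 0.43 (SE 0.085, limma adjusted p = 0.0368). In unirradiated knockout cells AURKA stood at 9.10 ± 0.17 (SD, n = 3) at 4 h and 9.08 ± 0.02 (SD, n = 3) at 24 h, so that the irradiated 4 h group was the low one and the irradiated 24 h group lay among the unirradiated values.

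MSMO1, a sterol C4-methyl oxidase of cholesterol synthesis, had signals of 9.80, 9.88 and 9.93 at 4 h against 10.62, 10.61 and 10.18 at 24 h. The third array at 24 h was nearer to the 4 h group than the other two. The rise was 0.60 (SE 0.098, limma adjusted p = 0.00974). DLX5, a homeobox transcription factor of bone and craniofacial development, had signals of 10.59, 10.79 and 10.82 at 4 h against 11.17, 11.12 and 11.05 at 24 h. The first array at 4 h was the lowest of the 6, and the times did not overlap. DLX5 rose by 0.38 (SE 0.063, limma adjusted p = 0.00974).

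SDC2, the heparan sulfate proteoglycan syndecan 2, had signals of 7.70, 7.81 and 7.59 at 4 h against 8.23, 8.25 and 8.22 at 24 h. The 24 h values were almost the same on the 3 arrays, and the rise was 0.53 (SE 0.10, limma adjusted p = 0.0368). ZMYND8, a reader of histone marks that is recruited to damaged chromatin, had signals of 8.73, 8.79 and 8.54 at 4 h against 9.26, 9.29 and 9.04 at 24 h. The third array was the lowest at both times, and the rise was 0.51 (SE 0.096, limma adjusted p = 0.0315).

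The remaining 3 genes had lower signals. SLC6A16, an orphan member of the SLC6 transporter family, had signals of 4.77, 5.62 and 5.26 at 4 h against 6.04, 5.99 and 6.15 at 24 h, a rise of 0.84 (SE 0.17, limma adjusted p = 0.0444). Its values at 4 h were widely spread and those at 24 h were close together. OR2B6, an olfactory receptor gene, had signals of 4.03, 3.52 and 3.85 at 4 h, where 2 of 3 arrays were above background, and 4.85, 5.01 and 4.56 at 24 h, a rise of 1.01 (SE 0.19, limma adjusted p = 0.0368). GAPT, an adaptor protein known from B cells, was not above background on any array at 4 h (2.57, 2.27 and 2.91) and was above it on 2 of 3 at 24 h (3.98, 3.28 and 4.17). Its level was at least 1.14-fold higher at 24 h, measured against the background level, and this bound was not tested. The limma adjusted p of 0.0284 is for the measured signals, of which all at 4 h and 1 at 24 h were not above background.

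Several of the 8 genes also differed in the same direction without irradiation, where none was called. In unirradiated knockout cells the difference between 24 h and 4 h was 0.67 (SE 0.19, limma adjusted p = 0.493) for OR2B6 and 0.57 (SE 0.17, limma adjusted p = 0.493) for SLC6A16, whose mean at 24 h was 6.06 with and without irradiation. It was 0.27 (SE 0.063, unadjusted p = 0.000162, limma adjusted p = 0.391) for DLX5 and 0.26 (SE 0.096, limma adjusted p = 0.578) for ZMYND8. SDC2 differed by 0.15 (SE 0.10, limma adjusted p = 0.835), and GAPT was not above background on any unirradiated knockout array. The difference between the irradiated and the unirradiated time course had a limma adjusted p of 1 for each of the 8 genes. The limma unadjusted p ranged from 0.000652 for AURKA to 0.265 for SLC6A16, and was below 0.05 for 3.26% of all genes. Same-numbered arrays of the 2 doses were not paired. If they share deviations, the errors of this difference are too large, which was not tested.

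**Figure D1:**
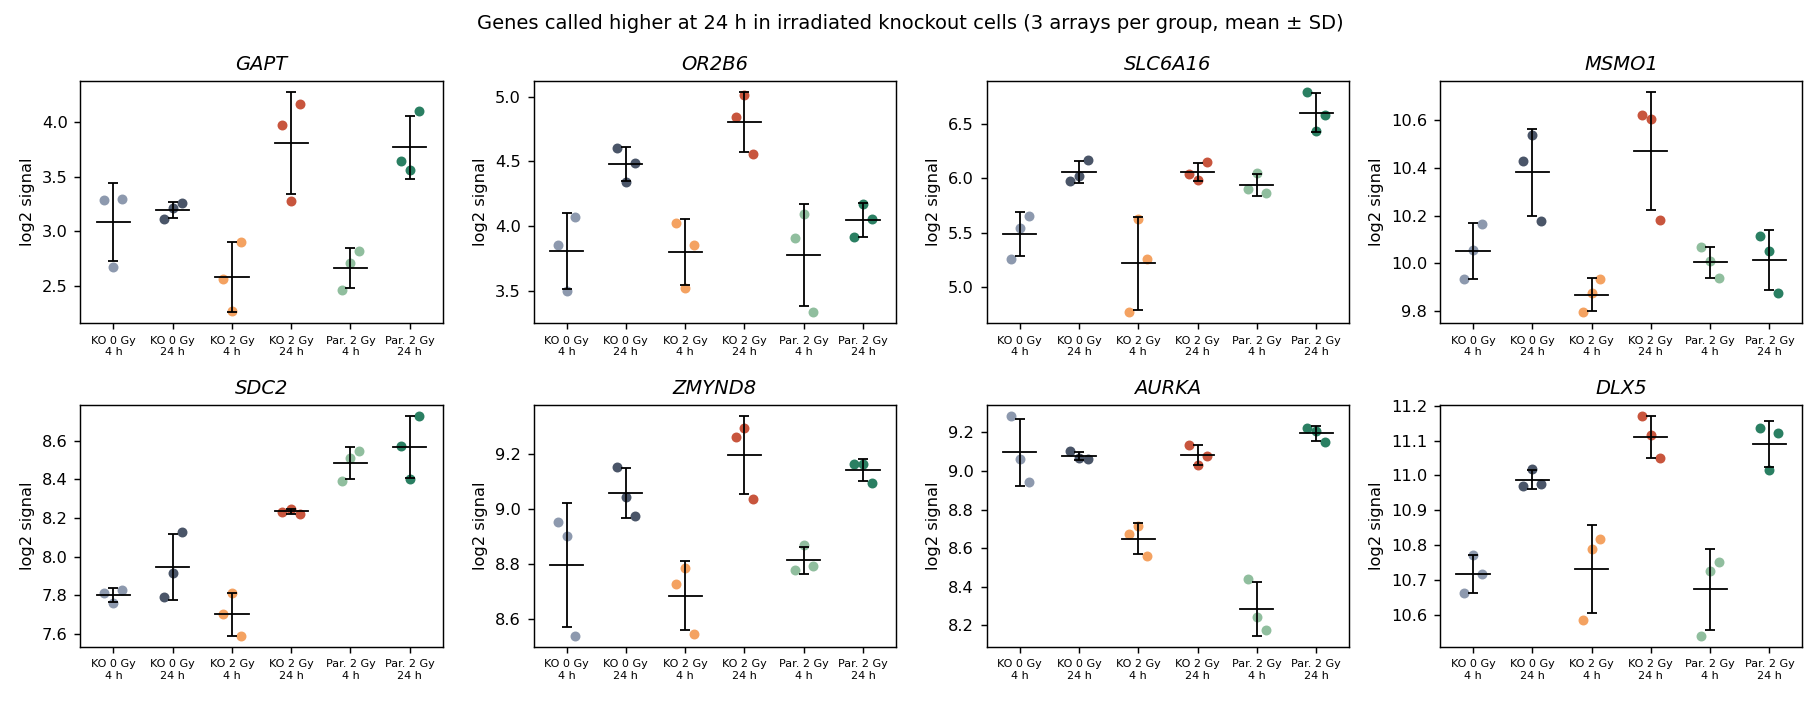
Log2 signal of the 8 genes that were higher at 24 h in irradiated knockout cells, by group of 3 arrays (KO, knockout; Par., parental; points are arrays, bars are mean ± SD). In every panel the irradiated knockout arrays at 24 h lie above those at 4 h, and for AURKA the irradiated groups at 4 h are the low ones.

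Single arrays decided how many genes were called. Without replicate 1 at 24 h or without replicate 1 at 4 h, 0 genes were higher by limma, although 1105 and 1334 had an unadjusted p below 0.05. Without replicate 2 at 24 h, 1 gene was higher, without replicate 3 at 4 h, 4 were, and without replicate 3 at 24 h, 13 were. Without replicate 2 at 4 h the count was 6. AURKA lost its call in each of these 6 fits, with adjusted p between 0.0717 and 0.343 and differences of 0.39 to 0.47. MSMO1 and DLX5 kept theirs in 3 of the 6, GAPT and ZMYND8 in 2, and OR2B6, SDC2 and SLC6A16 in 1. Each of the 8 differences kept its sign in these 6 fits. Without an intensity trend in the variance limma called 0 genes, with 1307 at an unadjusted p below 0.05. After a further quantile normalization of the arrays, 7 genes were higher and 1, GPATCH4, was lower, beside 8 and 0 as deposited. AURKA, at a limma adjusted p of 0.0663, was not among the 7, nor was it called with median centring (0.0865) or when only the compared arrays were fitted (0.0541). In that last fit 7 genes were called, of which 4 (MSMO1, DLX5, ZMYND8 and GAPT) were among the 8.

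Genes of mitosis leaned higher at 24 h. Of 88 genes in lists of mitotic cyclins and kinases, kinesin motors, and kinetochore, spindle and cytokinesis genes, 86 were measured, all above background on all 6 arrays. Their median difference was 0.14 against 0.0035 over all genes, and 72 of the 86 differences were positive against 50.8% of all genes. Only AURKA was called, while 26 had an unadjusted p below 0.05 on the higher side and 0 on the lower side. The mean log2 signal over the 86 genes was 7.84, 7.76 and 7.75 on the arrays at 4 h and 7.97, 7.90 and 7.94 at 24 h. These means did not overlap between the times. In unirradiated knockout cells the same mean was 8.05 ± 0.14 (SD, n = 3) at 4 h and 7.97 ± 0.03 (SD, n = 3) at 24 h.

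Among cyclins and kinases, 23 of 26 differences were positive, with a median of 0.13. CCNB1, the cyclin that activates CDK1 for mitotic entry, had signals of 8.67, 8.69 and 8.87 at 4 h against 9.16, 9.11 and 9.19 at 24 h, without overlap. Its difference was 0.41 (SE 0.097, limma adjusted p = 0.109), short of the threshold. PLK1, the Polo-like kinase of mitotic entry and spindle assembly, had signals of 10.25, 10.45 and 10.54 at 4 h against 10.64, 10.62 and 10.63 at 24 h. The 3 arrays at 24 h were nearly equal, and the difference was 0.22 (SE 0.069, limma adjusted p = 0.321). CDC20, which activates the anaphase-promoting complex, differed by 0.27 and the checkpoint kinases BUB1 and TTK by 0.24 and 0.23. The lowest member was HASPIN, a histone H3 kinase, at −0.18.

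Among kinesin motors, 12 of 15 differences were positive, with a median of 0.12. KIF20A, a motor of the central spindle and cytokinesis, had signals of 7.92, 7.84 and 7.88 at 4 h against 8.33, 8.09 and 8.05 at 24 h. The groups did not overlap, and the difference was 0.28 (SE 0.12, limma adjusted p = 0.567). CENPE, the kinesin that carries chromosomes along spindle fibres, had signals of 7.02, 6.83 and 6.53 at 4 h against 7.36, 7.17 and 6.95 at 24 h. The lowest array at 24 h lay below the highest at 4 h, and the difference was 0.37 (SE 0.13, limma adjusted p = 0.434). KIF14, a motor of the midbody, had the largest difference of the motors at 0.39 and KIF22, a chromosome-bound motor, the lowest at −0.22.

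Among kinetochore, spindle and cytokinesis genes, 37 of 45 differences were positive, with a median of 0.14. GAS2L3, a linker of actin and microtubules at the midbody, was chosen after its values were seen. Its signals were 7.44, 7.59 and 7.58 at 4 h against 8.30, 8.07 and 8.11 at 24 h, without overlap. The difference of 0.62 (SE 0.14) missed the threshold with a limma adjusted p of 0.0936 and passed it, at 0.0437, when only these 6 arrays were fitted. HMMR, a spindle assembly factor, had signals of 6.39, 5.76 and 5.75 at 4 h against 6.35, 6.46 and 6.16 at 24 h. The first array at 4 h lay among the 24 h values, and the difference was 0.36 (SE 0.19, limma adjusted p = 0.678).

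**Figure D2:**
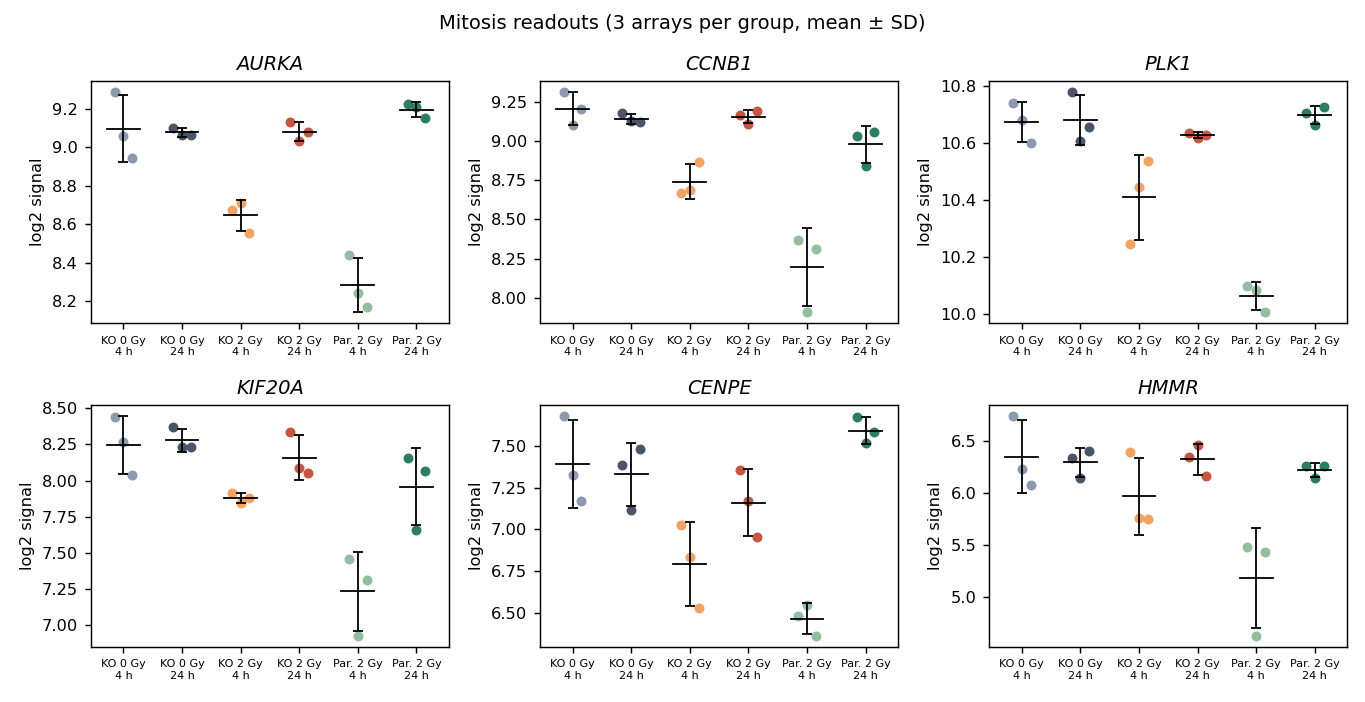
Log2 signal of 6 mitosis genes by group of 3 arrays (KO, knockout; Par., parental; points are arrays, bars are mean ± SD). The irradiated parental group at 4 h has the lowest mean in each panel, and the irradiated knockout arrays at 4 h lie below those at 24 h except for overlaps in CENPE and HMMR.

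The promoters of such genes are known to carry CCAAT boxes, bound by NF-Y, and the cell cycle homology region (CHR), bound by the DREAM and MuvB complexes. In RefSeq promoters of GRCh38.p14, windows of 300 bases around the gene start, 72 of the 86 mitosis genes had an entry. The letters CCAAT, on either strand, stood in 52 of them (72.2%) against 36.4% of the 14250 tested genes with an entry. The CHR letters TTTGAA or TTCGAA, on either strand, stood in 51 (70.8%) against 13.4%. The E2F letters TTTCGCG or TTTGGCG stood in 6 (8.33%) against 4.2%. None of these words contains another, and a match describes the letters only. The windows of PLK1, on the forward strand at chr16:23678639-23678938, and CCNB1, on the forward strand at chr5:69166900-69167199, are shown because both genes are standard readouts of mitotic entry and differ in what they hold. Capitals mark CCAAT in both and TTTGAA in PLK1.
PLK1: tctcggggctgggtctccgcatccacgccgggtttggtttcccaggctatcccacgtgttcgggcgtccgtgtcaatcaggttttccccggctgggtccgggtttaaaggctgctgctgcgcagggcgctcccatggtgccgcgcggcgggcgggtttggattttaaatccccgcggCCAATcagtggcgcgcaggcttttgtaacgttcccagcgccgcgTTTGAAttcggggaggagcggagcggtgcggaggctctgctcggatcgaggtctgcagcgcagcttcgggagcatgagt
CCNB1: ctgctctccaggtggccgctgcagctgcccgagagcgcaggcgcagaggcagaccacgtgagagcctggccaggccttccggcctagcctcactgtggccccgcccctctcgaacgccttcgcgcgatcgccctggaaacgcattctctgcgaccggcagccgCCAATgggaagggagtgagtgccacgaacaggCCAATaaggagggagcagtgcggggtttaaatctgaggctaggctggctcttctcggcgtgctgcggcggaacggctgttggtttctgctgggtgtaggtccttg
In PLK1 the CCAAT began 73 bases and the TTTGAA 29 bases before the gene start. In CCNB1 the 2 CCAAT matches began 87 and 55 bases before it, and neither CHR word is in the window.

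Time without irradiation gave another picture for these genes. In unirradiated knockout cells limma called 0 genes (0%) between 24 h and 4 h in either direction, with a lowest adjusted p of 0.391. At an unadjusted p below 0.05 there were 663 higher (3.75%) and 552 lower genes (3.12%). The median of the 86 mitosis genes was −0.08, and 21 of 86 differences were positive against 53% of all genes. At that unadjusted level 0 were higher and 4 lower. Their mean signal on the unirradiated arrays at 4 h was 8.20, 8.01 and 7.94, against 7.97 ± 0.03 (SD, n = 3) at 24 h. This lean to lower values thus rested largely on replicate 1 at 4 h, and the list median without that array was not tested. The difference between the irradiated and the unirradiated time course was then tested gene by gene, without pairing same-numbered arrays of the 2 doses. Limma called 0 genes (0%) in either direction there too, with 243 higher (1.37%) and 334 lower (1.89%) at an unadjusted p below 0.05. For that difference the mitosis genes had a median of 0.21, with 80 of 86 positive and 22 higher and 0 lower at an unadjusted p below 0.05, against −0.0048 and 48.8% over all genes. The high unirradiated array, replicate 1 at 4 h, enters these values too, and how far they depend on it was not tested. Single genes did not pass: AURKA had a difference of 0.45 (SE 0.12, unadjusted p = 0.000652, limma adjusted p = 1) and CCNB1 of 0.48 (SE 0.14, limma adjusted p = 1).

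**Figure D3:**
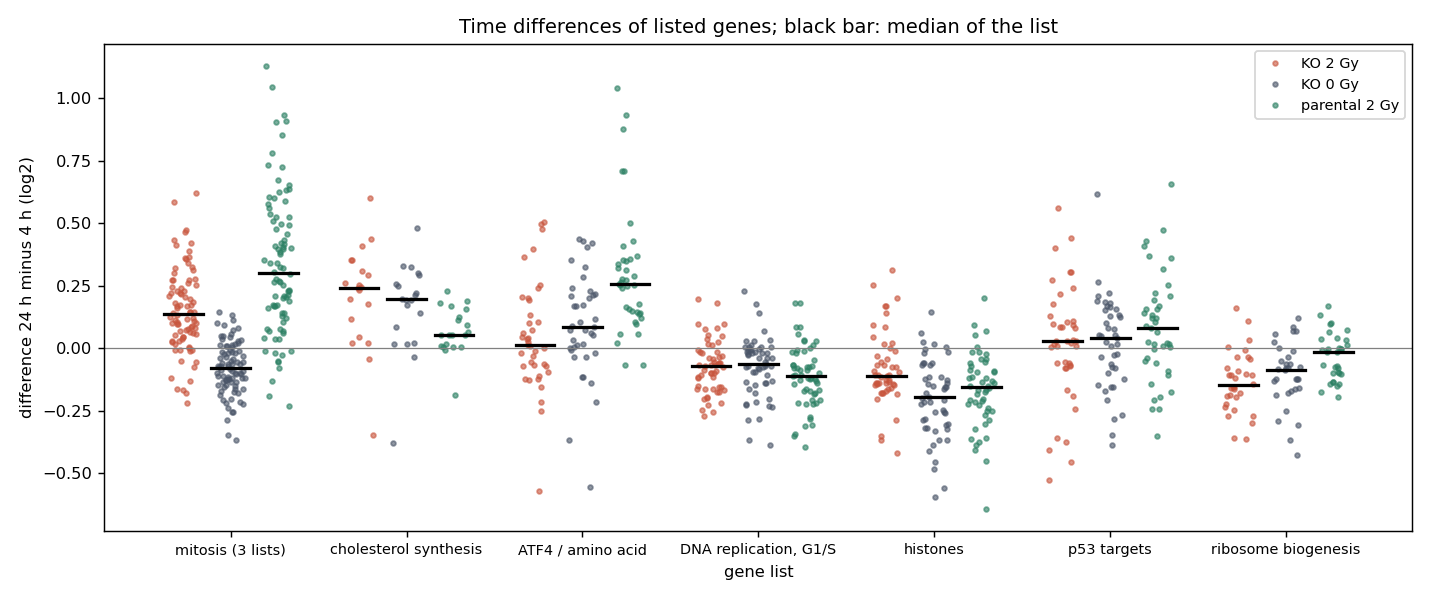
Difference between 24 h and 4 h (log2) for each measured gene of 7 groups of lists, in irradiated knockout, unirradiated knockout and irradiated parental cells (points are genes, black bars are medians). The mitosis medians are 0.14, −0.08 and 0.30, and the cholesterol synthesis medians 0.24, 0.20 and 0.05.

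Genes of DNA replication and the G1/S transition did not share the lean of the mitosis genes. Of 55 measured genes, 12 had a positive difference, the median was −0.07, and 0 were called by limma, with 3 at an unadjusted p below 0.05 on the lower side. TK1, thymidine kinase, was the lowest at −0.27 (SE 0.080, limma adjusted p = 0.298), and CCNE1, cyclin E1, the highest at 0.20. Replication-dependent histone genes had a median of −0.11 with 12 of 50 positive, and 0 called (1 and 4 at an unadjusted p below 0.05 on the higher and lower side). Without replicate 1 at 4 h the histone median was −0.04. Both lists had negative medians without irradiation as well, at −0.06 and −0.20. The histone RNAs mostly lack poly(A) tails, and many are near-identical in sequence, so single histone genes are uncertain on this platform.

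Targets of p53, the damage-activated transcription factor, moved little as a list. The median of 41 measured targets was 0.03, 26 were positive, and 0 were called by limma (4 higher and 2 lower at an unadjusted p below 0.05). CDKN1A, the cell cycle inhibitor p21, had signals of 5.55, 4.88 and 4.54 at 4 h against 5.85, 5.47 and 5.33 at 24 h. The times overlapped, as the first array at 4 h lay above the 2 lower ones at 24 h. Its difference was 0.56 (SE 0.23, limma adjusted p = 0.518). MDM2, the ubiquitin ligase that limits p53, differed by 0.09 (SE 0.14) and GDF15, a secreted stress cytokine, by −0.07 (SE 0.22). FAS, a death receptor, differed by 0.44 (SE 0.19), PMAIP1, the BH3-only protein NOXA, by 0.10 (SE 0.16), and SESN1, a sestrin, by 0.10 (SE 0.24). GADD45A, a stress sensor, had the lowest value of the list at −0.53 (SE 0.15, limma adjusted p = 0.262). The median of 54 genes of DNA damage checkpoints and repair was −0.01, with 0 called (1 higher and 2 lower unadjusted).

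Cholesterol synthesis held the second called gene of a list. Of 20 measured genes 18 were positive, the median was 0.24, and MSMO1 was called, with 9 genes at an unadjusted p below 0.05 on the higher side and 1 on the lower. SQLE, squalene epoxidase, IDI1, an isoprenoid isomerase, and INSIG1, the sterol sensor that retains SREBP in the endoplasmic reticulum, were chosen after their values were seen. SQLE had signals of 9.53, 9.74 and 9.77 at 4 h against 10.02, 10.02 and 9.93 at 24 h, without overlap, and differed by 0.31 (SE 0.10, limma adjusted p = 0.354). IDI1 differed by 0.35 (SE 0.16, limma adjusted p = 0.567) and INSIG1 by 0.41 (SE 0.17, limma adjusted p = 0.554). HMGCS1, the synthase that begins the pathway, differed by 0.26 (SE 0.17, limma adjusted p = 0.777). PMVK, phosphomevalonate kinase, was the lowest at −0.35. Without replicate 1 at 4 h the median of the list was 0.14. Fatty acid synthesis genes had a median of 0.13, with 10 of 11 positive and 0 called (3 higher unadjusted), among them SCD, a desaturase, at 0.26 and FASN, fatty acid synthase, at 0.25. That median was 0.077 without replicate 1 at 24 h and 0.22 without replicate 3 at 24 h.

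In the unirradiated knockout time course the cholesterol genes had a median of 0.20, with 18 of 20 positive, and MSMO1 differed by 0.33 (SE 0.098, limma adjusted p = 0.493). MSMO1 stood at 10.05 ± 0.12 (SD, n = 3) at 4 h and 10.38 ± 0.18 (SD, n = 3) at 24 h without irradiation. The list mean at 4 h was 7.63, 7.84 and 7.79 on irradiated arrays and 7.58, 7.85 and 7.82 on unirradiated arrays, by replicate number. At 24 h it was 8.05, 8.04 and 7.79 against 7.95, 7.98 and 7.81. Same-numbered arrays of the 2 doses may thus share deviations that make the 2 time courses look alike, which was not tested. The difference between the 2 time courses had a median of 0.04 over the list and was 0.27 (SE 0.14, limma adjusted p = 1) for MSMO1. Of the 20 genes 18 had a promoter entry, and 15 of those (83.3%) held CCAAT. The sterol regulatory element core CACCCCA, on either strand, stood in 4 (22.2%) against 7.87% of tested genes. The window of MSMO1, on the forward strand at chr4:165327419-165327718, is shown because it was the called gene of the list, with its 4 CCAAT matches (ATTGG on the other strand) in capitals. They began 185, 139, 76 and 34 bases before the gene start. The sterol element core CACCCCA is not in this window on either strand.
MSMO1: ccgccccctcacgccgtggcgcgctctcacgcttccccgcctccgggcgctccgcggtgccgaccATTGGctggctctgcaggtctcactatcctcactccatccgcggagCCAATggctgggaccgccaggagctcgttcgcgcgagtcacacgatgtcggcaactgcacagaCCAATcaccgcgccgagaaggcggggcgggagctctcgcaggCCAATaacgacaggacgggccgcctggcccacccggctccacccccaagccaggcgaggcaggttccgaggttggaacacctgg

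Genes of stress and growth signalling were mixed. Of 43 immediate early and ERK feedback genes 23 were positive, the median was 0.02, and 0 were called by limma, with 7 higher and 1 lower at an unadjusted p below 0.05. The highest were ETV5, an ERK-induced ETS factor, at 0.97 (SE 0.34, limma adjusted p = 0.402) and EGR1, an immediate early zinc finger factor, at 0.95 (SE 0.28, limma adjusted p = 0.302). In unirradiated knockout cells EGR1 differed by 0.91 and ETV5 by −0.64. The difference between the irradiated and unirradiated time courses was 1.61 for ETV5 and 0.03 for EGR1, both at a limma adjusted p of 1. JUN, an AP-1 subunit, differed by −0.29 (SE 0.22) and MYC, a growth-promoting factor, by 0.06 (SE 0.11). ATF3, a stress-induced factor, had signals of 3.87, 3.63 and 3.78 at 4 h, where 2 of 3 arrays were above background, and 3.77, 4.43 and 4.58 at 24 h. The first array at 24 h lay among the 4 h values, and the difference was 0.50 (SE 0.22, limma adjusted p = 0.57). TXNIP, a glucose-responsive arrestin, differed by −0.21 (SE 0.25), with 1 high array at 4 h (5.78 against 4.54 and 4.88).

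The ATF4 and amino acid response genes, which cells induce when amino acids run short, had a median of 0.01, with 22 of 39 positive and 0 called by limma (6 higher and 2 lower unadjusted). ASNS, asparagine synthetase, had signals of 8.03, 8.48 and 8.47 at 4 h against 8.15, 8.13 and 8.50 at 24 h. The 2 times overlapped, and the difference was −0.07 (SE 0.13, limma adjusted p = 0.949). CHAC1, which degrades glutathione, differed by 0.25 (SE 0.16). CREB5, a CREB family factor listed with the immediate early and ERK feedback genes and not here, differed by 0.21 (SE 0.18). VEGFA, the vascular growth factor, chosen after its values were seen, had signals of 7.69, 7.89 and 7.94 at 4 h against 8.35, 8.37 and 8.32 at 24 h. The groups did not overlap, and the difference of 0.51 (SE 0.12) had a limma adjusted p of 0.109. DDIT3, the stress factor CHOP, was the lowest of the list at −0.57.

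Ribosome biogenesis and nucleolar genes leaned lower. Of 32 measured genes 4 were positive, the median was −0.15, and 0 were called by limma, with 0 higher and 5 lower at an unadjusted p below 0.05. NOP2, an rRNA methyltransferase, had the lowest value at −0.37 (SE 0.17, limma adjusted p = 0.613), and the nucleolar proteins NCL and FBL were both at −0.11. In unirradiated knockout cells the median was −0.09. The ribosomal protein genes had a median of −0.02 over 32 genes, with 0 called (0 higher and 1 lower unadjusted).

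**Figure D4:**
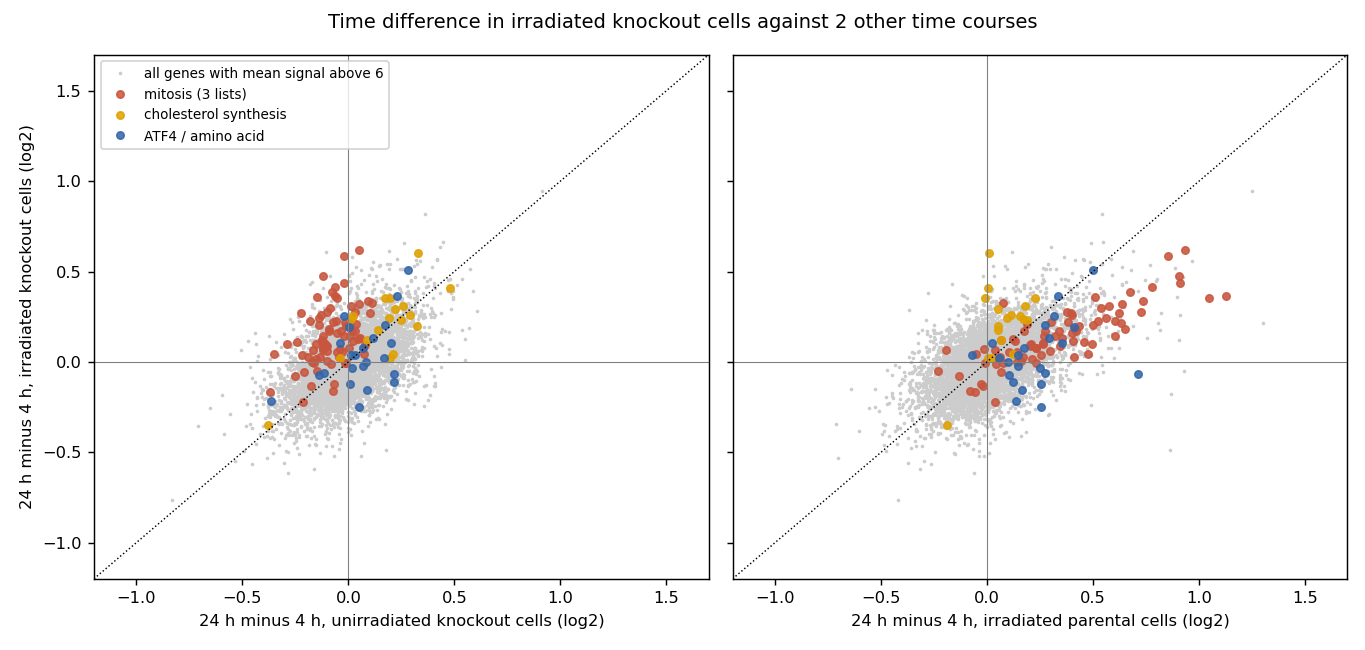
Difference between 24 h and 4 h (log2) of each gene with mean signal above 6 in irradiated knockout cells (vertical axis) against unirradiated knockout cells (left) and irradiated parental cells (right), with the dotted line of equal differences. Mitosis genes lie mostly above the line on the left and mostly below it on the right, while the cholesterol genes spread along it on the left.

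In irradiated parental cells, which shared no array with the knockout time course, limma called 114 genes higher (0.645%) and 9 lower (0.0509%) at 24 h. At an unadjusted p below 0.05 there were 963 higher (5.44%) and 593 lower genes (3.35%). Leaving out 1 parental array changed the 114 to 39 (replicate 1 at 24 h), 59 (replicate 3 at 24 h), 49 (replicate 1 at 4 h) or 75 (replicate 2 at 4 h), and the 9 to between 0 and 17. Of the 123 called genes 3 were also called in the knockout cells, AURKA, DLX5 and GAPT, and 114 had a difference of the same sign there. The share of same-sign genes over all genes was not counted, so that last count has no baseline. The 114 genes that were higher in parental cells had a median difference of 0.63 there, of 0.26 in irradiated knockout cells and of 0.06 in unirradiated knockout cells. The 114 genes were chosen by their parental values, so the parental median is a description only. Over the 6997 genes with a mean signal above 6, the knockout and the parental irradiated time course correlated at r = 0.56 across genes, and the irradiated and unirradiated knockout time courses at r = 0.53. Over all 17687 genes these were 0.30 and 0.27. Any deviations shared by same-numbered arrays of the 2 doses were not modelled and would raise the correlation between the knockout time courses.

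In irradiated parental cells the median difference of the mitosis genes was 0.30, with 76 of 86 positive and 27 called higher. At an unadjusted p below 0.05, 53 were higher and 1 was lower. Over all genes 48.1% were positive and 0.645% called higher, with 5.44% higher and 3.35% lower at that unadjusted level. Their mean signal was 7.48 ± 0.12 (SD, n = 3) at 4 h and 7.81 ± 0.12 (SD, n = 3) at 24 h. AURKA rose by 0.91 (SE 0.085, limma adjusted p = 7.9e-08) in parental cells, from 8.29 ± 0.14 (SD, n = 3) to 9.19 ± 0.04 (SD, n = 3). CCNB1 rose by 0.78, PLK1 by 0.63, KIF20A by 0.72, CENPE by 1.13 and HMMR by 1.05, each at a limma adjusted p of 0.00286 or less.

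Whether the 2 lines differed was tested on the difference of their irradiated time courses, and limma called 0 genes (0%) in either direction, with a lowest adjusted p of 0.256. At an unadjusted p below 0.05 there were 313 higher (1.77%) and 315 lower genes (1.78%). Differences of this kind were less precise, with a median 95% interval of 0.44 on either side. Knockout minus parental cells, the 86 mitosis genes had a median of −0.16 with 12 positive, against 50.8% of all genes. At that unadjusted level 0 were higher and 10 lower. The value was −0.48 (SE 0.12, limma adjusted p = 0.434) for AURKA, with a 95% interval of −0.72 to −0.23. It was −0.42 (SE 0.097, limma adjusted p = 0.3) for PLK1 and −0.76 (SE 0.19, limma adjusted p = 0.397) for CENPE.

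ASNS and CREB5 rose in irradiated parental cells. The time course of unirradiated parental cells was not examined. Here, as for the mitosis genes, parental rises are therefore not separated from time in culture. ASNS stood at 9.06 ± 0.07 (SD, n = 3) at 4 h and 9.77 ± 0.08 (SD, n = 3) at 24 h in irradiated parental cells, a rise of 0.71 (SE 0.13, limma adjusted p = 0.0022). CREB5 stood at 6.33 ± 0.07 (SD, n = 3) and 7.63 ± 0.19 (SD, n = 3), a rise of 1.30 (SE 0.18, limma adjusted p = 7.75e-05). Knockout minus parental, the difference of the time courses was −0.78 (SE 0.18, limma adjusted p = 0.3) for ASNS, −1.09 (SE 0.25, limma adjusted p = 0.3) for CREB5 and −1.15 (SE 0.32, limma adjusted p = 0.688) for JUN. CREB5 and JUN are in the immediate early list and not in the ATF4 list. The 39 ATF4 and amino acid response genes had a median of 0.26 in parental cells, with 37 positive and 5 called. Over all genes 48.1% were positive there. For the difference of the lines the median of the 39 was −0.18. In the other direction, MSMO1 differed by 0.01 (SE 0.098) in parental cells, and its difference of the time courses was 0.59 (SE 0.14, limma adjusted p = 0.3). Without replicate 3 of the irradiated knockout cells at 24 h that became 0.73, with a limma adjusted p of 0.0455.

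**Figure D5:**
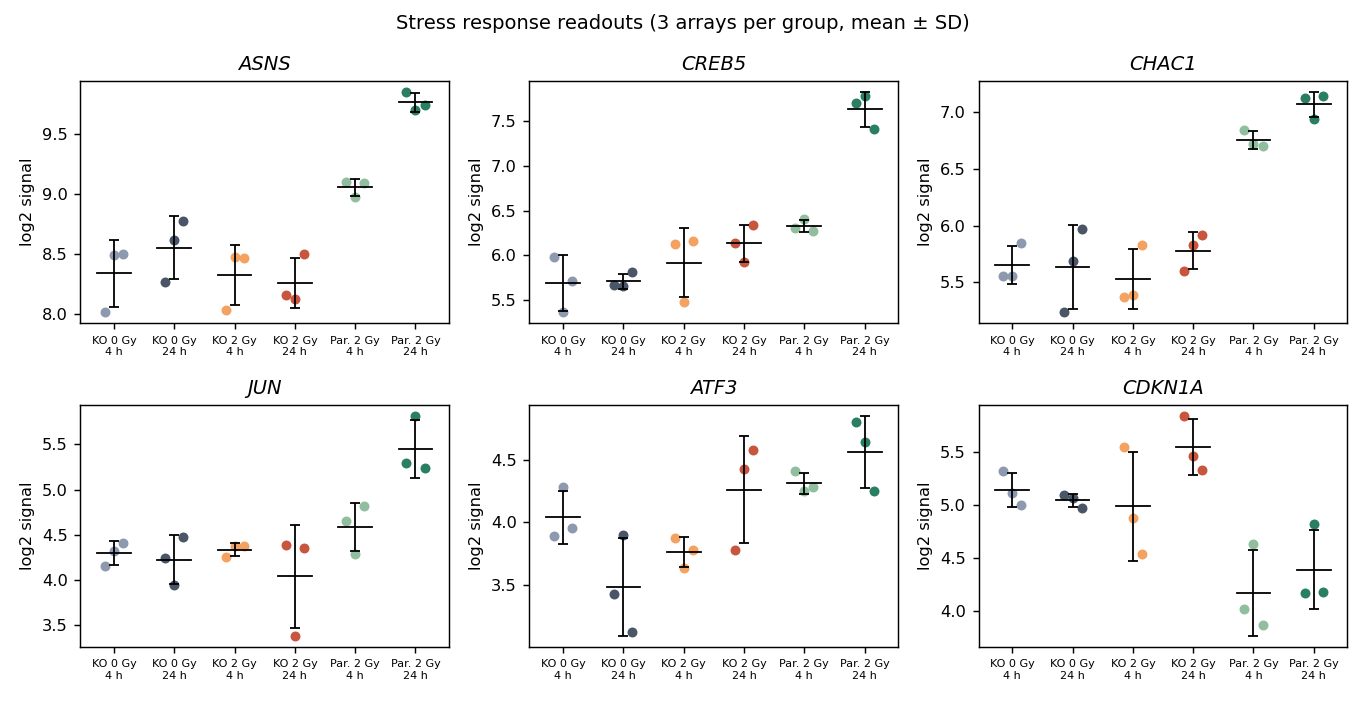
Log2 signal of 6 stress response genes by group of 3 arrays (KO, knockout; Par., parental; points are arrays, bars are mean ± SD). ASNS, CREB5 and JUN are at their highest in irradiated parental cells at 24 h, while in irradiated knockout cells the 2 times overlap in each of these 3 panels.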

How the data were processed

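RNA was measured on Affymetrix whole-transcript arrays, 3 for each of 8 groups. As deposited, each probe set carries a log2 signal made with RMA (background correction, quantile normalization and summary) in Affymetrix Expression Console 1.1, per the submitters' processing notes. The set of arrays that shared a normalization is not stated in the sources used here. Of 24351 probe sets, 17709 have 1 gene symbol in the platform annotation, none has several, 2903 are controls and 3739 have no name here. Where a gene had several probe sets (20 genes), the brightest on average was used, leaving 17687 genes, with no filter on dim ones. Arrays give no read depth, and precision is limited by how many there are.

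All 24 arrays entered 1 linear model with a mean for each group and a common spread, fitted with limma 3.58.1 under R 4.3.3 (lmFit, then eBayes allowing the variance to follow intensity). Calls needed an adjusted p (Benjamini-Hochberg, over all genes) below 0.05. Background on an array was the 95th percentile of 612 negative control probe sets. A difference against a group at or below background on every array is given as "at least N-fold", from means of normalized log2 values, against the higher of that level and the measured signal.

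In a self-test on simulated data (17687 genes with the observed spread), the fit of irradiated knockout cells recovered 44.8%, 98.5% and 100% of genes given a log2 change of 0.5, 1 and 2. Recovery was 13.4%, 76.1% and 100% for the difference between the lines. Genes with all of these changes were put into the same simulated data, which eases the Benjamini-Hochberg threshold beyond data with few changes. Among the unchanged genes of the simulated data, 11 were also called in each comparison. In the measured data 8 genes were called in irradiated knockout cells and 0 for the difference between the lines. The recovered shares may therefore be too high for the measured data.

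Genes named are the called genes without overlap, called list members, the Schlafen family and 20 readouts (CDKN1A, MDM2, GDF15, FAS, PMAIP1, SESN1, CCNB1, PLK1, AURKA, KIF20A, CENPE, HMMR, CREB5, CHAC1, JUN, ATF3, ASNS, MYC, HMGCS1 and TXNIP), besides the lowest and highest members of lists. Others were chosen after their values were seen. The comparison, its lists and its readouts were chosen with earlier results of these data known. Lists are described by counts and medians, with no test. The sterol element was added to the promoter motifs after the others. Same-numbered arrays were not treated as pairs.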

Additional observations from a re-analysis of the deposited data

How the results depend on the processing

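Each comparison was refitted with only the compared arrays, a filter on dim genes, each array left out, the replicate number as a block, array weights, no intensity trend, median centring, quantile normalization and the mean of a gene's probe sets. Each of the 8 genes higher in irradiated knockout cells at 24 h kept its direction wherever it was fitted (GAPT was removed by the filter on dim genes). Their number was 8 as reported, 15 with array weights, 0 with no intensity trend, 5 with median centring and 0 to 13 with 1 array left out. Genes lower at 24 h numbered 0 as reported, 2 with array weights (SLC29A1 and TAMM41) and 1 with quantile normalization. In irradiated parental cells the 114 higher genes became 61 with only the compared arrays, 334 with array weights, 52 with no intensity trend and 39 to 102 with 1 array left out, and the 9 lower genes became 3, 97, 2 and 0 to 17. For the difference between the lines, leaving out 1 array gave 0 to 1 higher genes (MSMO1) and 0 to 1 lower genes (MBD3L4, which has near-identical copies). The cause of these changes was not tested. Where 1 array was left out, the smaller number of arrays and the array itself cannot be told apart. The other counts stayed within 1.5 times, though not always with the same genes.

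Same-numbered arrays of the 2 times in irradiated knockout cells deviated together only weakly (correlations of −0.05, 0.08 and 0.15), and 1 of 3 numbers matched best with itself. The correlations were 0.08, 0.03 and 0.18 in unirradiated knockout cells, where 2 of 3 numbers did, and 0.09, 0.48 and 0.23 in irradiated parental cells, where 1 of 3 did. As not every correlation passed 0.1 in any of these, the numbers were not taken as pairs across the times. Same-numbered arrays of the 2 doses at the same time were not checked in this way, and no fit paired them. The cholesterol list means given above moved alike by number at the 2 doses, so such pairing is possible. With such pairing, the fit would overstate the error of the difference between the irradiated and unirradiated time courses. Its absent calls then would not show an absent effect of dose. With the replicate block, 49 genes were higher and 24 lower in irradiated knockout cells, including all 8 called without it. With the block, 6 were higher and 9 lower in unirradiated knockout cells, 260 higher and 48 lower in irradiated parental cells, and 2 lower for the difference between the lines (ASNS, −0.78, and CREB5, −1.09). List medians of mitosis, cholesterol synthesis, replication, histone and ribosome biogenesis genes kept their sign throughout; that of the ATF4 list ranged from −0.05 (without replicate 1 at 4 h) to 0.05 (without replicate 2 at 4 h), and other lists with medians near 0 also changed sign, up to 6 of 14 fits for neural genes (0.17 with the filter on dim genes), 5 for lysosome and 3 for NF-kB genes. With 3 arrays a group, a log2 change of 0.5 was recovered for 44.8% of genes in simulated data, so an absent call does not show an absent change.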

Other observations

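Outside the groups described so far, single genes of varied roles stood out by size in irradiated knockout cells, all chosen after their values were seen. NCAM1, the neural cell adhesion molecule, differed by 0.82 between 24 h and 4 h (SE 0.22, limma adjusted p = 0.221), and by 0.36 without irradiation. TIMP3, an inhibitor of matrix metalloproteinases, differed by 0.66 (SE 0.14, limma adjusted p = 0.0762), by 0.45 without irradiation and by 0.55 in irradiated parental cells; it passed the threshold, at 0.0437, when only the 6 compared arrays were fitted. ID1, an inhibitor of helix-loop-helix factors, was lower by size at −0.76 (SE 0.33, limma adjusted p = 0.56) and −0.83 without irradiation. CCNG2, a cyclin linked to cell cycle exit, differed by 0.59 (SE 0.21, limma adjusted p = 0.413), and by 1.13 in irradiated parental cells.

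Median differences in irradiated knockout cells were 0.10 for extracellular matrix and mesenchymal genes, −0.15 for YAP/TEAD and TGF-beta response genes, 0.11 for arrestin, insulin and FOXO genes, 0.07 for interferon-stimulated genes, 0.05 for genes activated by EWSR1-FLI1 and 0.01 for genes it represses. Limma called 0 members of these lists, with 4 higher and 0 lower, 1 and 4, 3 and 1, 3 and 1, 4 and 0, and 5 and 0 members at an unadjusted p below 0.05. Over all genes 4.35% were higher and 3.6% lower at that level. The arrestin list had 23 measured genes and the interferon list 45. Whether any list exceeds the shares over all genes was not tested. Single arrays and settings moved these medians: without replicate 1 at 24 h that of the matrix genes was 0.02, without replicate 2 at 24 h that of the YAP/TEAD list was −0.05, without replicate 3 at 24 h that of the EWSR1-FLI1 activated genes was 0.02, and with the filter on dim genes that of the interferon-stimulated genes was 0.0028. The lists of aminoacyl-tRNA synthetases, endoplasmic reticulum chaperones, heat shock, hypoxia, lysosome, respiratory chain, NF-kB, WNT and NOTCH, neural, circadian and BCL2 family genes had medians between −0.05 and 0.05, several of which changed sign in other fits, also with 0 called by limma and with 0 to 6 higher and 0 to 3 lower members at an unadjusted p below 0.05.

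The lowest adjusted p for the difference between the lines, 0.256, belonged to ADCY2, KCNH7, MBD3L4 and ZCCHC12, chosen after their values were seen. KCNH7, a potassium channel gene, was not above background on any irradiated knockout array and stood at 5.07, 4.92 and 4.74 in irradiated parental cells at 24 h. ZCCHC12, a zinc finger gene, was above background on 3 arrays at 4 h and 1 at 24 h in irradiated knockout cells, and on 0 and 3 in irradiated parental cells.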
